A study of Arabidopsis thaliana with 24 samples.

Results

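Messengers of unstressed wild-type Arabidopsis seedlings were compared between the RNA that travelled with polysomes and the RNA of the whole lysate, to describe which of them were loaded well or poorly with ribosomes at rest. The comparison used 6 of the 24 libraries of the series, 3 of polysomal RNA and 3 of total RNA, picked out by the genotype, time and RNA fraction in their labels. Of the 38088 genes with values, 20964 (55.0%) reached at least 1 FPKM (fragments per kilobase of transcript, scaled to the depth of the library) in at least 3 of the 24 libraries and were tested. All 6 libraries came from 5-day-old Col-0 seedlings of wild-type genotype that had been germinated on agar medium, rested for 30 min in liquid medium and exposed to 150 mM NaCl for 0 min (T0). Polysomal RNA was taken from the combined polysome fractions of a sucrose gradient of 10% to 50%, and total RNA from the lysate that was loaded. The study also held the mutant dcp5-1, which affects a protein of the messenger decapping machinery, and a second time of 15 min in 150 mM NaCl (T15), each with both RNA fractions and 3 libraries a group. These 18 other libraries entered the fit for their spread, and the dcp5-1 T0 and Col-0 T15 groups served to ask where unstressed Col-0 differed. A group kept for those 15 min without NaCl is not among the samples, so the salt and the time elapsed cannot be told apart there.

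A messenger that is being translated carries several ribosomes at once, and this string, the polysome, sinks further in a sucrose gradient than free RNA or RNA with a single ribosome. How much of a messenger is found there depends on how often ribosomes start on it, how fast they move and how long its coding sequence is, since a long coding sequence has room for more ribosomes. Short open reading frames ahead of the main one (upstream ORFs, uORFs) can hold ribosomes back, and in plants some of them encode peptides whose sequence is conserved and that stall the ribosome in response to sucrose, polyamines or other metabolites.

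The spacing of low values implied 15330000, 15210000 and 15310000 fragments in the polysomal libraries and 16870000, 14530000 and 15890000 in the total RNA libraries, and from 19033 to 19561 genes had at least 1 FPKM in a library. The first principal component of the 6 libraries held 66.68% of their variance and set the polysomal libraries apart from the total RNA libraries. Among 3209 genes with a mean of at least 50 FPKM, the median coefficient of variation was 3.08% between polysomal libraries and 8.74% between total RNA libraries. The labels number the replicates and do not say that they came from separate cultures, so p-values may measure technical spread only. Transcripts of shoot and root were both present: the antenna gene CAB3 had 6314, 5776 and 5719 FPKM in polysomal RNA, against 2449.8, 3369 and 2684 FPKM in total RNA, and EXPA18, a root hair expansin, had 3.89, 3.08 and 2.62 FPKM in polysomal RNA, against 3.98, 4.57 and 4.74 FPKM in total RNA. In such bulk material fewer cells of a type and less RNA per cell cannot be told apart. DCP5, the gene mutated in dcp5-1, had 92.3, 91.8 and 90.7 FPKM in polysomal RNA, against 48.5, 51.7 and 52.1 FPKM in total RNA of Col-0 T0, and 20.4, 21.4 and 20.1 FPKM in polysomal RNA, against 12.99, 12.96 and 13.2 FPKM in total RNA, of dcp5-1 T0.

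The fractions differed broadly. Of the 20964 genes, 7390 (35.3%) were higher in polysomal than in total RNA and 7548 (36.0%) were lower, together 14938 (71.3%), by limma on log2(FPKM + 1) with a Benjamini-Hochberg adjusted p below 0.05 over all genes tested. A difference of at least 2-fold was reached by 1177 of them upward (5.61%) and by 1719 downward (8.20%), and by 650 and 570 once a smooth dependence on transcript length and GC content, described further on, had been subtracted. In 14803 genes (70.6%) no polysomal library overlapped a total RNA library. The median log2 difference, polysomal minus total, was -0.02 over all genes tested, and its median SE was 0.09. Because FPKM values are relative to their library, a difference gives a gene's share of polysomal RNA against its share of total RNA, where 1 on the log2 scale is a 2-fold excess, and not the fraction of its molecules that carried ribosomes. FPKM of transcripts below 300 nt were unstable: of the 10 nuclear genes with the highest mean in total RNA, 8 were shorter than 300 nt and 7 of these were at 0 in at least 1 total RNA library, so named genes were taken from longer ones except among small RNAs. The other two were PSBR, of photosystem II, and the metallothionein MT2B.

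The 12 genes named for the largest positive differences, above 10 FPKM and with a symbol, encoded mostly enzymes, and all but DI19 and the RNA gene U3D had coding sequences of 1077 nt or more. The naming rule admitted only genes whose fractions did not overlap. That separation, where stated for these genes and the 12 lowest, was therefore fixed by the rule. Rubisco activase (RCA, AT2G39730), which frees the active sites of Rubisco, had 7239, 7185 and 7259 FPKM in polysomal RNA, against 1599.7, 1959.5 and 1828 FPKM in total RNA. Glycine decarboxylase P-protein (GLDP1, AT4G33010), a mitochondrial enzyme of photorespiration, had 699.9, 688 and 709 FPKM in polysomal RNA, against 158, 194 and 176 FPKM in total RNA. Catalase 2 (CAT2, AT4G35090), which removes the hydrogen peroxide of photorespiration in peroxisomes, had 1326, 1263 and 1306 FPKM in polysomal RNA, against 329.7, 336 and 349 FPKM in total RNA. In all 3 genes each polysomal library was above each total RNA library, and the log2 differences were 2.01 (SE 0.06, limma adjusted p = 3.3e-17) for RCA, 1.99 (SE 0.05, limma adjusted p = 6.5e-18) for GLDP1 and 1.94 (SE 0.05, limma adjusted p = 3.1e-18) for CAT2. The chloroplast fructose-bisphosphatase HCEF1 had 470.2, 465 and 454 FPKM in polysomal RNA, against 102, 125 and 108 FPKM in total RNA. In HCEF1 the log2 difference was 2.05. S-adenosylmethionine synthetase SAM-2, which makes the main methyl donor of the cell, had 504, 489.8 and 487 FPKM in polysomal RNA, against 102, 143 and 123 FPKM in total RNA. In SAM-2 the log2 difference was 2.01. THIC, which makes the pyrimidine part of thiamine, had 56.05, 60.8 and 63.4 FPKM in polysomal RNA, against 13.5, 17.5 and 14.04 FPKM in total RNA. In THIC the log2 difference was 1.94. HSP60, a mitochondrial chaperonin, reached a log2 difference of 2.28 (SE 0.05, limma adjusted p = 1.4e-18), from 65.6, 64.9 and 67.8 FPKM in polysomal and 12.3, 13.9 and 12.3 FPKM in total RNA. BCE2, the acyltransferase of the branched-chain dehydrogenase complex, reached 2.28 (SE 0.08, limma adjusted p = 2.6e-16), from 32.9, 29.8 and 34.1 FPKM in polysomal and 5.87, 5.73 and 5.90 FPKM in total RNA. The protease ALP and the ACT domain protein ACR9 followed with 1.98 and 1.94. BCE2, HCEF1, RCA, GLDP1, THIC and CAT2 overlap an annotated gene on the other strand, and no source used here says that the counting used strand.

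The first and second of the 12 largest positive differences were of another kind. U3D (AT5G54075), a small nucleolar RNA gene with a model of 361 nt, had 34.7, 37.5 and 35.4 FPKM in polysomal RNA, against 4.21, 7.51 and 2.84 FPKM in total RNA. In U3D the log2 difference was 2.73 (SE 0.36, limma adjusted p = 3.1e-06), and it too lies opposite another annotated gene. DI19 (AT1G56280), a zinc finger protein first described as induced by drought, had 709, 670.2 and 713 FPKM in polysomal RNA, against 127, 161 and 130.1 FPKM in total RNA. Its polysomal libraries lay far above its total RNA libraries, without overlap, and the log2 difference was 2.32 (SE 0.07, limma adjusted p = 2.6e-17), although its coding sequence is only 603 nt long.

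**Figure D1:**
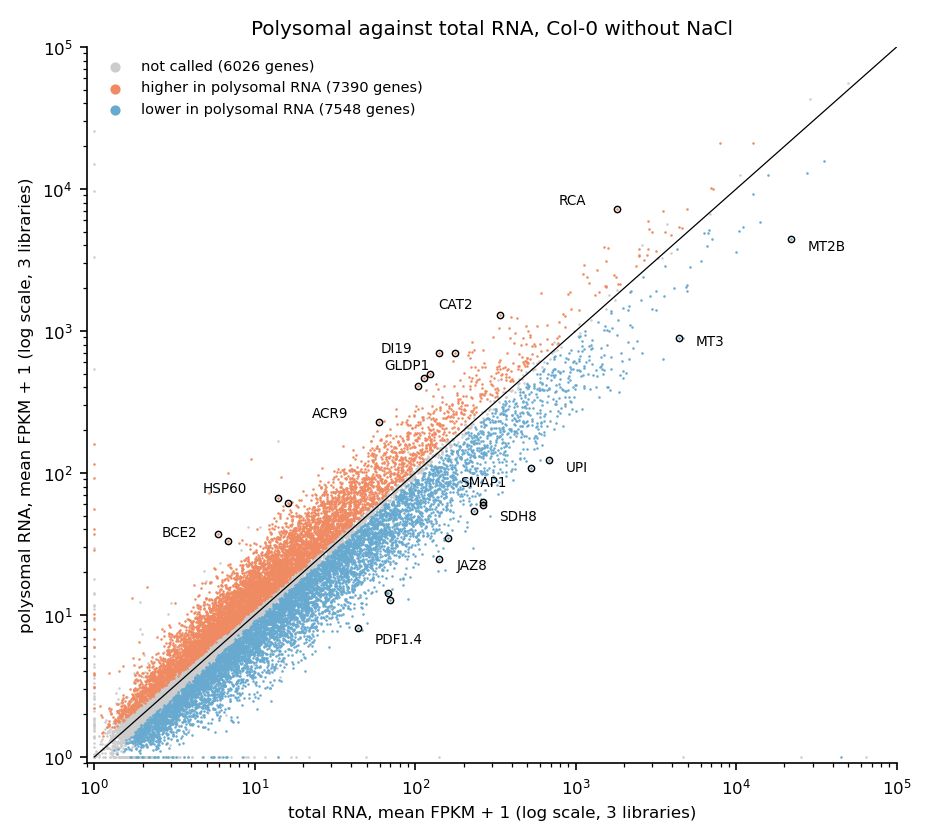
Mean FPKM + 1 of each of the 20964 genes tested in polysomal RNA (vertical axis) against total RNA (horizontal axis), both log scales, 3 libraries each, in Col-0 at T0. Orange points were called higher in polysomal RNA (7390 genes), blue points lower (7548 genes) and grey points neither; circles mark the 12 genes with the largest difference in each direction under the naming rule, and the line marks equal values.

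The most poorly loaded nuclear messengers above 10 FPKM and with a symbol, under the naming rule, encoded very small proteins. Their coding sequences ran from 141 nt (SDH8) to 498 nt (KELP). The metallothionein MT2B (AT5G02380) is a cysteine-rich metal-binding protein. Among nuclear protein-coding messengers of at least 300 nt, it had the next highest level in total RNA after the photosystem II subunit PSBR. MT2B had 4600.0, 4173 and 4618 FPKM in polysomal RNA, against 18918, 24450.0 and 22129 FPKM in total RNA. MT3 (AT3G15353), a related metallothionein, had 864, 906 and 905 FPKM in polysomal RNA, against 4152, 4805 and 4251 FPKM in total RNA. In both genes every total RNA library was above every polysomal library, and the log2 differences were -2.28 (SE 0.10, limma adjusted p = 8.5e-15) for MT2B and -2.30 (SE 0.07, limma adjusted p = 1.5e-17) for MT3. SMAP1, a small acidic protein of auxin response, had 103, 106 and 113 FPKM in polysomal RNA, against 478, 583 and 512 FPKM in total RNA. In SMAP1 the log2 difference was -2.27 (SE 0.08, limma adjusted p = 4.9e-16). SDH8, a small subunit of succinate dehydrogenase in plant mitochondria, had 51.95, 57.9 and 66.1 FPKM in polysomal RNA, against 240.4, 279 and 265 FPKM in total RNA. In SDH8 the log2 difference was -2.14 (SE 0.10, limma adjusted p = 2.6e-14). AGP21, an arabinogalactan peptide of the cell surface, had 48.6, 68.4 and 67.4 FPKM in polysomal RNA, against 224, 309 and 255 FPKM in total RNA. In AGP21 the log2 difference was -2.08 (SE 0.13, limma adjusted p = 1.2e-11). None of these 3 genes had a polysomal library above a total RNA library.

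The coding sequences of these 5 genes are printed whole because shortness is a feature they share. They are from the RefSeq TAIR10.1 assembly, 5′ to 3′, with exons joined, and capitals mark the start and stop codons. They lie at chr3:5180825-5181325, minus strand (MT3, 210 nt), chr5:506755-507164, minus strand (MT2B, 234 nt), chr4:7864462-7864650, plus strand (SMAP1, 189 nt), chr2:19042466-19043018, minus strand (SDH8, 141 nt) and chr1:20648634-20648810, minus strand (AGP21, 177 nt), where the span runs over any introns between start and stop.
MT3: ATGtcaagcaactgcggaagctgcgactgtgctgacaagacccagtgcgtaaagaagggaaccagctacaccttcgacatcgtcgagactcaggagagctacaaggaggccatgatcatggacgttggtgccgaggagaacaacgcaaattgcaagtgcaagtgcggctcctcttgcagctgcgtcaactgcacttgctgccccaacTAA
MT2B: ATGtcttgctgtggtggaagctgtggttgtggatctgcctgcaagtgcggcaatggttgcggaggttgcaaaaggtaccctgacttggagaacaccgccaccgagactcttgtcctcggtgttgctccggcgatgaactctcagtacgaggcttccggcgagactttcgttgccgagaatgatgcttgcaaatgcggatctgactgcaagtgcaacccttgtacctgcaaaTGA
SMAP1: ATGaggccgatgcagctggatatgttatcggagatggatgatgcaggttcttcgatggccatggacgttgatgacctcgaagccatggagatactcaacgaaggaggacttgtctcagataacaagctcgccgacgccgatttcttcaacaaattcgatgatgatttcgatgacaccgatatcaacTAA
SDH8: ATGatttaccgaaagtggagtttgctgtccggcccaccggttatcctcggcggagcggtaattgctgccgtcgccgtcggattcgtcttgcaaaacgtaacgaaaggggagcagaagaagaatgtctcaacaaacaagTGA
AGP21: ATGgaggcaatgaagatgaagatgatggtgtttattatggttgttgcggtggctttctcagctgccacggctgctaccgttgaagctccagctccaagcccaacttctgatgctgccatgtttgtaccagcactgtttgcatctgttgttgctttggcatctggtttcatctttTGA
The open reading frames thus hold 69, 77, 62, 46 and 58 codons before the stop, in the same order.

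Signalling and defence genes with small products were at the far end too. JAZ8, a repressor of jasmonate signalling, had 20.05, 24.99 and 25.9 FPKM in polysomal RNA, against 129.6, 145 and 147 FPKM in total RNA, which was the lowest log2 difference under the naming rule, -2.53 (SE 0.10, limma adjusted p = 3.4e-15). UPI, a protease inhibitor, had 119, 122 and 128 FPKM in polysomal RNA, against 631, 723 and 685 FPKM in total RNA. In UPI the log2 difference was -2.46. PROPEP4, the precursor of a danger-signalling peptide, had 10.6, 11.4 and 13.3 FPKM in polysomal RNA, against 66.9, 72.8 and 66.6 FPKM in total RNA. In PROPEP4 the log2 difference was -2.45. In all 3 genes the total RNA libraries lay far above the polysomal libraries. The other genes named were the defensin-like PDF1.4 (-2.44), the ROTUNDIFOLIA-like peptide gene RTFL12 (-2.23), the transcriptional coactivator KELP (-2.20) and TIM9 (-2.09), a small chaperone of mitochondrial protein import. MT3, KELP, SDH8 and AGP21 lie opposite another annotated gene.

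**Figure D2:**
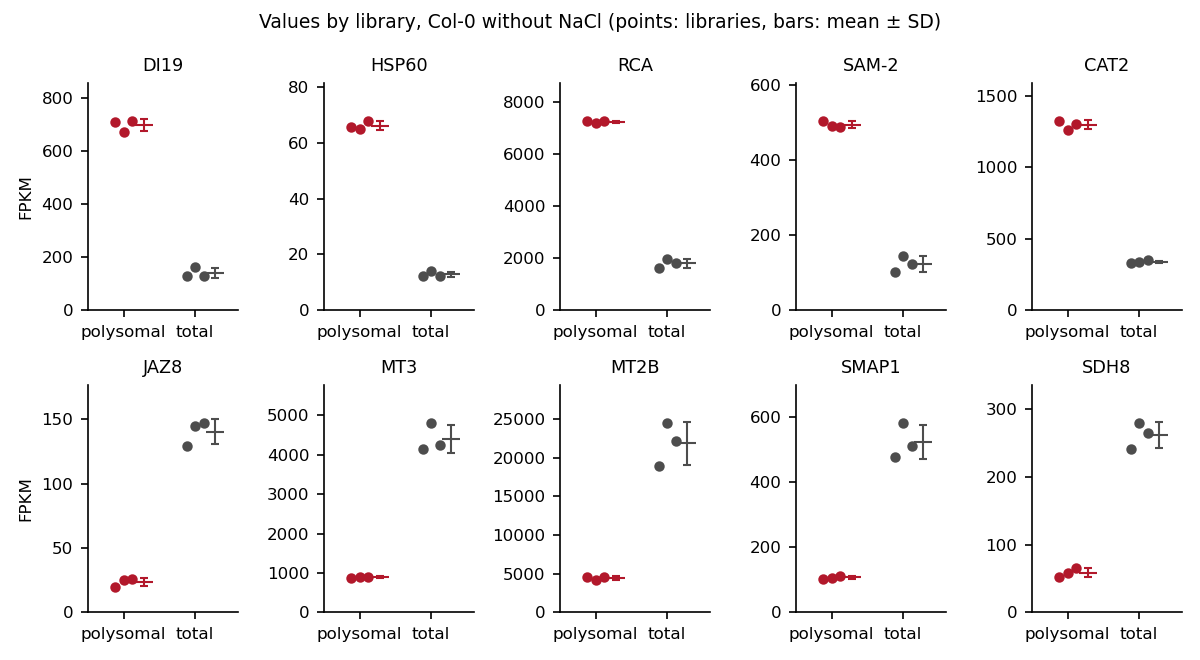
FPKM of 10 of the named genes in each of the 3 polysomal libraries (red, left) and 3 total RNA libraries (grey, right) of Col-0 at T0; points are libraries, and bars beside them give the mean ± SD. In the upper row (DI19, HSP60, RCA, SAM-2, CAT2) every polysomal library is above every total RNA library, and in the lower row (JAZ8, MT3, MT2B, SMAP1, SDH8) every one is below. The naming rule required this separation.

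The difference between fractions rose with coding length over the whole transcriptome. Over 19422 nuclear protein-coding genes with a transcript of at least 300 nt, the rank correlation between coding length and the log2 difference was 0.56, and it lay between 0.50 and 0.58 in the 3 pairs of columns that carry the same number. It is a description across genes, which share their libraries and are not independent replicates. In the first of 10 classes of coding length, with coding sequences of 60 to 423 nt (19 to 140 codons), the median log2 difference was -0.98, and 42 of 1970 genes were higher in polysomal RNA while 1642 were lower. In the next classes the medians were -0.58, -0.27, -0.07, 0.11, 0.19 and 0.25, so that the sign turned between the class of 780 to 948 nt and that of 951 to 1110 nt. The medians then stayed level, at 0.32, 0.29 and 0.27 in the last 3 classes, and in the longest one (2376 to 15297 nt) 1096 of 1939 genes were higher and 301 lower.

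Other features of the transcripts followed the difference less closely. The rank correlation was 0.51 for transcript length, 0.38 for the GC content of the transcript and 0.31 for the number of exons. It was 0.06 for the length of the 5′ UTR, 0.03 for that of the 3′ UTR and -0.10 for GC at the third codon position. In each polysomal library the FPKM itself fell with coding length with a rank correlation between -0.196 and -0.199, and in each total RNA library between -0.364 and -0.386. The FPKM values carried a length conversion: low values were whole fragments only when 269 to 279 nt was subtracted from transcript length in polysomal libraries and 254 to 256 nt in total RNA libraries. With that conversion undone, the rank correlation with coding length over 19329 genes of at least 400 nt was 0.57, against 0.56 as deposited, and the median of the first class was -0.98, against -0.997 as deposited.

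**Figure D3:**
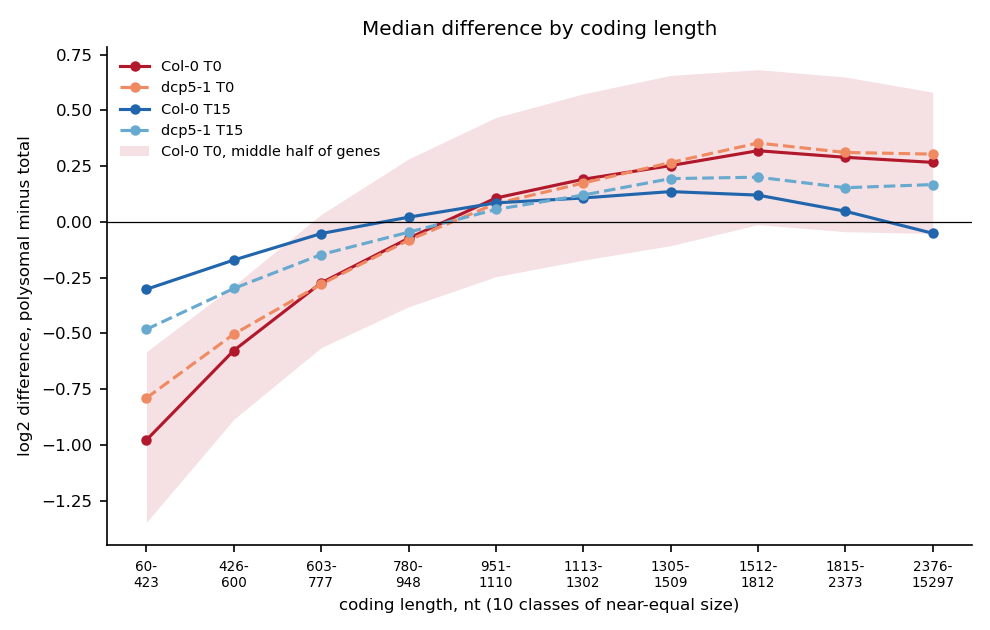
Median log2 difference, polysomal minus total RNA, in 10 classes of coding length (horizontal axis, nt) for Col-0 and dcp5-1 at T0 and T15; the shaded band is the interquartile range of Col-0 at T0. The line of Col-0 at T0 crosses 0 between the fourth and the fifth class and is the steepest of the Col-0 pair, with -0.98 in the first class at T0 and -0.30 at T15.

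Some messengers broke with this order. Among genes with a mean of at least 10 FPKM, 16 with a coding sequence of at most 603 nt, the length in DI19, were at least 2-fold higher in polysomal RNA, and 3 with one of at least 2376 nt were at least 2-fold lower; these were named after their values were seen. TCTP (AT3G16640), the translationally controlled tumor protein homologue and one of the most abundant of the short group, had 3923, 3757 and 3993 FPKM in polysomal RNA, against 1284, 1756 and 1443 FPKM in total RNA. In TCTP the log2 difference was 1.39 (SE 0.08, limma adjusted p = 1.0e-12). DI21, another gene named for its induction by drought, had 111, 114 and 124 FPKM in polysomal RNA, against 42.8, 55.8 and 43.9 FPKM in total RNA. In DI21 the log2 difference was 1.28 (SE 0.08, limma adjusted p = 3.4e-12). AT4G11211, whose annotated coding sequence of 66 nt is the shortest of them and whose product is uncharacterized, had 94.1, 90.3 and 91.2 FPKM in polysomal RNA, against 13.2, 16.4 and 10.8 FPKM in total RNA. In AT4G11211 the log2 difference was 2.70 (SE 0.13, limma adjusted p = 8.3e-14). All 16 had polysomal libraries above their total RNA libraries, which their choice by a called 2-fold excess makes likely. Of them 10 are annotated as uncharacterized proteins, a share not compared with that among other short messengers. Of the 3 long messengers, the PWWP domain gene AT5G40340 had 6.39, 6.52 and 6.76 FPKM in polysomal RNA, against 18.8, 17.8 and 20.4 FPKM in total RNA. In AT5G40340 the log2 difference was -1.40 (SE 0.07, limma adjusted p = 2.2e-13). PLDGAMMA2, a phospholipase D, had 7.59, 7.61 and 7.31 FPKM in polysomal RNA, against 18.8, 14.4 and 17.9 FPKM in total RNA. In PLDGAMMA2 the log2 difference was -1.07, and the model of this gene carries 22 upstream ATGs with an in-frame stop in a 5′ UTR of 1770 nt. AT1G70620, annotated as cyclin-like, had a log2 difference of -1.22.

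Because length and GC content moved with the difference, each group of nuclear genes below is given as measured and again after a smooth dependence on transcript length and GC content had been subtracted in each library (trend removed). With the trend removed, 6512 of 20397 genes were higher (31.9%) and 7393 lower (36.2%). The groups are counted against 35.3% higher and 36.0% lower among all genes tested. Of the genes named in them, EIF3E, FBR12, PRK, PSBR, PSAE-2, PSRP5, HSP17.4, CESA1, SHY2, RS41, AT3G54500, AT5G10695, AT3G01950, TUA5, AT1G50020 and SAC51 lie opposite another annotated gene.

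Genes for ribosomal proteins were mostly lower in polysomal RNA. Of 78 genes for proteins of the small cytosolic ribosomal subunit, 7 were higher in polysomal RNA and 57 lower, with a median of -0.59; of 111 genes for the large subunit, 18 were higher in polysomal RNA and 83 lower, with a median of -0.70. With the trend removed the median was -0.19, with 16 higher and 38 lower, for the small subunit, and -0.13, with 33 higher and 58 lower, for the large one. The S29 protein gene AT3G44010, with 171 nt of coding sequence, had 459, 456 and 483 FPKM in polysomal RNA, against 1671, 2297 and 1958 FPKM in total RNA. In AT3G44010 the log2 difference was -2.07. The L29 protein gene AT3G06700, with 186 nt, had 485, 485 and 496 FPKM in polysomal RNA, against 1653, 2046 and 1949 FPKM in total RNA. In AT3G06700 the log2 difference was -1.94. In both genes the total RNA libraries were all above the polysomal ones, while RP1, a large-subunit protein gene with 1170 nt, showed the opposite order. RP1 had 549, 574 and 546 FPKM in polysomal RNA, against 191, 254 and 217 FPKM in total RNA. In RP1 the log2 difference was 1.34 (SE 0.07, limma adjusted p = 4.4e-13). Genes of both subunits have close copies elsewhere in the genome, and how shared reads were counted is not given in the sources used here.

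Translation factors lay mostly on the other side: of 48 tested, 34 were higher in polysomal RNA and 7 lower, with a median of 0.63, and with the trend removed the median was 0.27, with 29 higher and 9 lower. EIF3E, a subunit of the initiation factor that prepares the small ribosomal subunit, had 74.3, 74.8 and 73.4 FPKM in polysomal RNA, against 25.4, 26.6 and 28.5 FPKM in total RNA. In EIF3E the log2 difference was 1.43 (SE 0.04, limma adjusted p = 3.2e-17). EIF4G, the scaffold of the cap-binding complex, had 12.7, 11.9 and 12.1 FPKM in polysomal RNA, against 3.86, 3.95 and 4.10 FPKM in total RNA. In EIF4G the log2 difference was 1.41 (SE 0.06, limma adjusted p = 1.3e-15). EIF4E, the cap-binding protein itself, had 35.3, 36.8 and 34.3 FPKM in polysomal RNA, against 74.1, 74.1 and 67.4 FPKM in total RNA. In EIF4E the log2 difference was -0.998 (SE 0.05, limma adjusted p = 7.3e-14), so the scaffold and the cap-binding subunit of 1 complex stood on opposite sides. FBR12, a form of the factor eIF5A with 480 nt of coding sequence, was lower as well, with a log2 difference of -1.07. AT1G76810, a large eIF2-family GTPase with 3885 nt, was lower in spite of its length, with 10.2, 10.7 and 11.5 FPKM in polysomal RNA, against 19.8, 19.002 and 22.1 FPKM in total RNA. In AT1G76810 the log2 difference was -0.85, or -1.16 with the trend removed. Of 50 genes annotated as aminoacyl-tRNA synthetases, which charge tRNAs with amino acids, 36 were higher in polysomal RNA and 12 lower, with a median of 0.67 (0.41 with the trend removed). The glycyl-tRNA synthetase AT1G29880 had 49.7, 48.9 and 47.9 FPKM in polysomal RNA, against 17.1, 15.8 and 15.3 FPKM in total RNA. In AT1G29880 the log2 difference was 1.55. SAMBA (-1.40), known as a regulator of the anaphase-promoting complex, and AT5G10695 (-1.96), which the annotation also lists under such names, were lower and have coding sequences of 303 and 204 nt. Of 33 ribosome biogenesis genes 11 were higher in polysomal RNA and 14 lower, with a median of -0.08 (-0.10 with the trend removed).

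Nuclear photosynthesis genes were found on both sides. Of 65 tested, 40 were higher in polysomal RNA and 19 lower, with a median of 0.31; with the trend removed the median was 0.27, with 44 higher and 13 lower. SBPASE, sedoheptulose-bisphosphatase of the Calvin cycle, had 677, 691 and 669 FPKM in polysomal RNA, against 209, 215 and 210.1 FPKM in total RNA. In SBPASE the log2 difference was 1.68 (SE 0.04, limma adjusted p = 1.9e-18). PRK, phosphoribulokinase of the same cycle, had 1070.1, 1054 and 1033 FPKM in polysomal RNA, against 374, 395 and 384 FPKM in total RNA. In PRK the log2 difference was 1.45 (SE 0.04, limma adjusted p = 6.5e-18). PSBR, a photosystem II subunit with 423 nt of coding sequence, had 12938, 13009 and 13022 FPKM in polysomal RNA, against 24855, 31451 and 27070.2 FPKM in total RNA. In PSBR the log2 difference was -1.09 (SE 0.07, limma adjusted p = 2.6e-12). The Calvin cycle enzymes were higher and PSBR lower in every polysomal library than in any total RNA library. The photosystem I subunits PSAE-2 and PSAO were also lower, with log2 differences of -0.99 and -0.87. CAB3, an antenna protein of photosystem II with 804 nt, was higher, with a log2 difference of 1.08 (limma adjusted p = 8.8e-11).

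Nuclear genes for the mitochondrial respiratory chain were mostly lower. Of 79 tested, 12 were higher in polysomal RNA and 57 lower, 34 of them by at least 2-fold, with a median of -0.87; with the trend removed the median was -0.31, with 15 higher and 45 lower. The catalytic subunit SDH1-1 of succinate dehydrogenase had 43.99, 45.2 and 46.1 FPKM in polysomal RNA, against 17.6, 17.4 and 18.9 FPKM in total RNA. In SDH1-1 the log2 difference was 1.28, while SDH8 of the same complex stood at -2.14. The small complex I subunit gene AT3G08610 had 210.3, 222 and 211 FPKM in polysomal RNA, against 741, 949 and 805 FPKM in total RNA. In AT3G08610 the log2 difference was -1.94, while EMB1467, a large complex I subunit, stood at 1.17. In both complexes the large subunit named was higher and the small one lower. Of 18 nuclear genes annotated as ribosomal proteins of plastids or mitochondria, 2 were higher in polysomal RNA and 13 lower, with a median of -0.62 (-0.32 with the trend removed). PSRP5, a plastid ribosomal protein, had 705, 673 and 709 FPKM in polysomal RNA, against 1708, 2215 and 1786 FPKM in total RNA. In PSRP5 the log2 difference was -1.44. Of 224 genes for pentatricopeptide repeat proteins, which bind organelle RNA and have long coding sequences, 62 were higher in polysomal RNA and 50 lower, with a median of -0.02; with the trend removed the median was -0.23, with 35 higher and 107 lower, which turned the balance of the counts.

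Most genes of protein folding, protein turnover and the cytoskeleton were higher in polysomal RNA. Of 28 genes for cytosolic heat shock and endoplasmic reticulum folding proteins, 18 were higher in polysomal RNA and 8 lower, with a median of 0.82 (0.38 with the trend removed, with 20 higher and 5 lower); as measured, 5 were lower when the first polysomal library was left out. Calreticulin CRT1a had 141, 139 and 149.6 FPKM in polysomal RNA, against 39.9, 37.6 and 42.7 FPKM in total RNA. In CRT1a the log2 difference was 1.81 (SE 0.05, limma adjusted p = 6.8e-18), and the disulfide isomerase PDIL1-1 had 76.8, 81.7 and 83.9 FPKM in polysomal RNA, against 23.9, 24.8 and 23.1 FPKM in total RNA. In PDIL1-1 the log2 difference was 1.71. The small heat shock protein HSP17.4 was on the other side and had 2.49, 2.87 and 2.48 FPKM in polysomal RNA, against 8.24, 10.3 and 7.54 FPKM in total RNA. In HSP17.4 the log2 difference was -1.42. Of 38 genes annotated with the proteasome, 27 were higher in polysomal RNA and 9 lower, with a median of 0.45 (0.36 with the trend removed). The gene AT2G32730, for a large subunit of its regulatory particle, had 35.3, 35.1 and 34.1 FPKM in polysomal RNA, against 15.9, 15.1 and 14.6 FPKM in total RNA. In AT2G32730 the log2 difference was 1.146, while the core subunit PAB1, with 708 nt of coding sequence, had 37.5, 36.7 and 37.9 FPKM in polysomal RNA, against 64.1, 72.7 and 61.6 FPKM in total RNA. In PAB1 the log2 difference was -0.80. Of 24 genes annotated as tubulins or actins, 23 were higher in polysomal RNA and 1 lower, with a median of 0.98 (0.57 with the trend removed). TUA3, an alpha-tubulin, had 153, 148 and 143 FPKM in polysomal RNA, against 55.4, 47.2 and 55.3 FPKM in total RNA. In TUA3 the log2 difference was 1.48 (SE 0.06, limma adjusted p = 1.3e-15). The coding sequences of TUA3 and TUA5 have 1324 of 1353 positions identical, so the split of reads between them is uncertain. The single member lower was AT1G50020, with -0.65, whose coding sequence of 630 nt is shorter than the 1353 nt of TUA3 and TUA5.

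Among groups of the cell wall, the membrane and metabolism, all but the arabinogalactan proteins and the expansins had more members higher than lower as measured. Of 21 cellulose synthase and cellulose synthase-like genes, 17 were higher in polysomal RNA and 0 lower by limma (0 also at an unadjusted p below 0.05), with a median of 0.52; with the trend removed the median was 0.22, with 12 higher and 3 lower. CESA1, a catalytic subunit for the primary wall, had 87.3, 82.8 and 86.9 FPKM in polysomal RNA, against 48.04, 47.3 and 47.7 FPKM in total RNA. In CESA1 the log2 difference was 0.83. Of 60 genes annotated as peroxidases, 45 were higher in polysomal RNA and 7 lower, with a median of 0.54 and 0.49 with the trend removed; the lowest named one, AT3G01950 (-0.97), is annotated with a domain of unknown function and has 213 nt of coding sequence. AT3G01950 stood at -0.11 with the trend removed and was not called (limma adjusted p = 0.44). The peroxidase AT3G32980 had 183, 183 and 182 FPKM in polysomal RNA, against 50.8, 54.9 and 55.5 FPKM in total RNA. In AT3G32980 the log2 difference was 1.75 (SE 0.05, limma adjusted p = 5.5e-18). Of 148 genes annotated as cytochrome P450, 98 were higher in polysomal RNA and 11 lower, with a median of 0.42 (0.14 with the trend removed, with 72 higher and 32 lower). CYP83B1, of indole glucosinolate synthesis, had 149.7, 143 and 145 FPKM in polysomal RNA, against 55.3, 60.1 and 58.5 FPKM in total RNA. In CYP83B1 the log2 difference was 1.32. Of 124 leucine-rich repeat receptor kinases, 69 were higher in polysomal RNA and 16 lower, with a median of 0.24, or -0.01 with the trend removed, when 39 were higher and 38 lower. BRI1, the brassinosteroid receptor, had 57.2, 56.5 and 56.9 FPKM in polysomal RNA, against 28.1, 27.5 and 27.99 FPKM in total RNA. In BRI1 the log2 difference was 1.003. Of 44 arabinogalactan proteins, 9 were higher in polysomal RNA and 26 lower, with a median of -0.39 (-0.11 with the trend removed, with 13 higher and 17 lower): the fasciclin-like FLA8, with 1263 nt, had 1.05 and the peptide gene AGP15, with 186 nt, had -1.50. Of 20 aquaporins, which carry water through the plasma membrane and tonoplast, 10 were higher in polysomal RNA and 3 lower, with a median of 0.19; with the trend removed the median was -0.04, with 5 higher and 4 lower. Of 23 xyloglucan endotransglucosylases 13 were higher and 5 lower (2 or 3 lower without library 2 or 3 of either fraction), with a median of 0.28, or 0.37 with the trend removed. Of 23 expansins 3 were higher (1 without total RNA library 1) and 6 lower, with a median of -0.06, or -0.15 with the trend removed.

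Core histone, SAUR, Aux/IAA, WRKY and ERF genes had more members lower than higher, and auxin response factors more members higher as measured. Of 41 core histone genes none was higher (1 at an unadjusted p below 0.05) and 39 were lower by limma, 2 had no call, and the median was -0.89; with the trend removed the median was -0.32, with 2 higher and 22 lower. The histone gene AT1G07820 had 84.2, 84.05 and 87.9 FPKM in polysomal RNA, against 232, 275 and 255 FPKM in total RNA. In AT1G07820 the log2 difference was -1.56. Of 65 SAUR genes, small proteins induced early by auxin, none was higher by limma (0 at an unadjusted p below 0.05) and 52 were lower, with a median of -0.94, but with the trend removed the median was -0.10, with 13 higher and 19 lower. Of 23 Aux/IAA repressors, which hold auxin response factors inactive, 3 were higher in polysomal RNA and 16 lower, with a median of -0.42 (-0.04 with the trend removed, with 7 higher and 9 lower). SHY2 had 40.9, 44.2 and 43.5 FPKM in polysomal RNA, against 80.5, 70.2 and 74.7 FPKM in total RNA. In SHY2 the log2 difference was -0.79, while IAA16 had 161, 156 and 160.1 FPKM in polysomal RNA, against 121, 118 and 119.8 FPKM in total RNA. In IAA16 the log2 difference was 0.41. Of 14 auxin response factors themselves, 8 were higher in polysomal RNA and 4 lower, with a median of 0.27; with the trend removed the median was -0.18, with 2 higher and 6 lower, which turned the balance of the counts. Of 49 WRKY factors 5 were higher in polysomal RNA and 26 lower, and of 69 genes of the ERF and DREB type 10 were higher in polysomal RNA and 38 lower, with medians of -0.17 and -0.34. Their medians were -0.25 and -0.22 with the trend removed. WRKY75 had 2.82, 3.53 and 3.67 FPKM in polysomal RNA, against 12.7, 13.1 and 9.77 FPKM in total RNA. In WRKY75 the log2 difference was -1.56, and EBP, an ERF, had 124, 124 and 119 FPKM in polysomal RNA, against 44.7, 63.7 and 52.02 FPKM in total RNA. In EBP the log2 difference was 1.19. Of 61 genes of the microRNA machinery or targeted by microRNAs, 13 were higher in polysomal RNA and 28 lower, with a median of -0.20; with the trend removed the median was -0.38, with 5 higher and 40 lower. AGO1 had a log2 difference of 0.66 and the target TCP10 one of -0.93.

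In the circadian clock, of 17 genes 6 were lower with a median of -0.17, and 2 were higher, against 0 or 1 when any 1 of the 6 libraries was left out; with the trend removed the median was -0.38, with 13 lower. PRR7, a pseudo-response regulator, had 9.39, 8.17 and 8.06 FPKM in polysomal RNA, against 19.7, 15.4 and 16.8 FPKM in total RNA. In PRR7 the log2 difference was -0.94. AT3G54500, of the LNK family of clock coactivators, had 137, 128 and 132 FPKM in polysomal RNA, against 363, 294 and 312 FPKM in total RNA. In AT3G54500 the log2 difference was -1.28. Of 34 rapid stress-inducible regulators, 11 were higher in polysomal RNA and 17 lower, with a median of -0.15 (-0.19 with the trend removed): the zinc finger gene CZF1 had 0.69 and RHL41, also known as ZAT12, had -1.01. Of 30 genes for messenger decapping and decay, 18 were higher in polysomal RNA and 7 lower, with a median of 0.31; with the trend removed the median was 0.01, with 12 higher and 10 lower. VCS, the decapping scaffold VARICOSE, had 12.8, 13.7 and 13.6 FPKM in polysomal RNA, against 6.58, 5.52 and 6.31 FPKM in total RNA. In VCS the log2 difference was 1.01. DCP5 had a log2 difference of 0.84 (SE 0.04, limma adjusted p = 6.9e-14), from the values above, while the deadenylase CAF1a had 127, 135 and 131 FPKM in polysomal RNA, against 219, 275 and 247 FPKM in total RNA. In CAF1a the log2 difference was -0.91. Of 23 splicing regulators 12 were higher in polysomal RNA and 6 lower, with a median of 0.15 and with RS41 at 0.98 and SR34b at -1.12. The median was -0.05 with the trend removed, when 7 were higher and 10 lower. Of 20 seed storage, oleosin and late embryogenesis genes 2 were higher and 10 lower, with LEA4-5 at -1.72 and a median of -0.34, or -0.23 with the trend removed. Of 169 F-box genes 36 were higher in polysomal RNA and 51 lower, with FBS1, a stress-induced F-box protein, at -1.76. Their median was -0.08, or -0.16 with the trend removed, when 25 of 168 were higher and 68 lower.

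**Figure D4:**
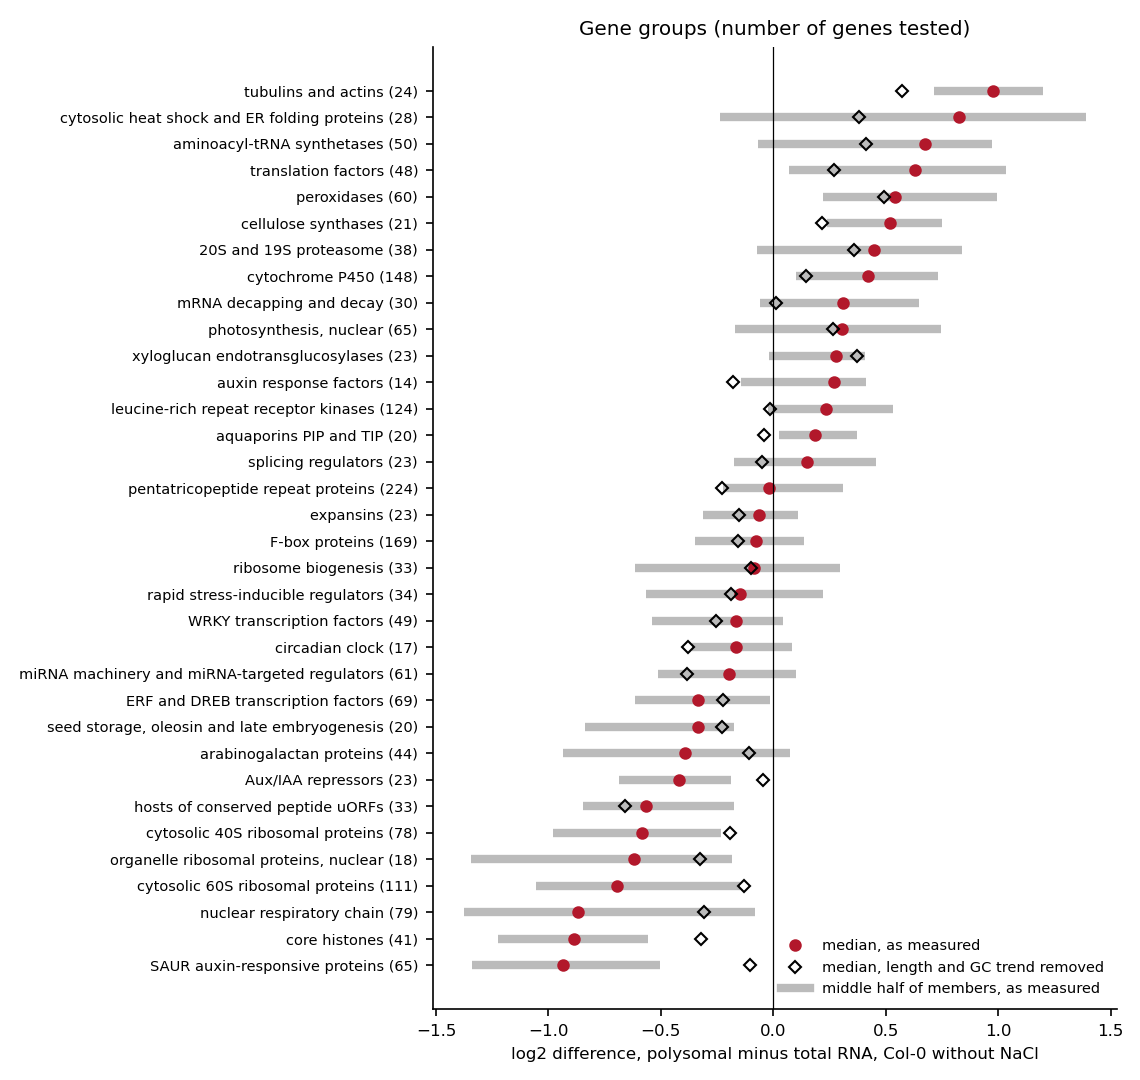
Log2 difference, polysomal minus total RNA, in Col-0 at T0 for groups of nuclear protein-coding genes with at least 14 tested members (number in brackets; RNA genes and pseudogenes are not drawn); filled circles give the median as measured, grey bars the interquartile range of the members, and open diamonds the median after the length and GC trend was subtracted. Tubulins and actins are at the top with a median of 0.98 and SAUR genes at the bottom with -0.94, and their diamonds stand at 0.57 and -0.10.

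Upstream ORFs were counted in the 5′ UTR of 1 transcript model per gene as an ATG with an in-frame stop before the main start codon. Several ATGs that end at the same stop were counted separately. Of 17594 genes with a 5′ UTR of at least 50 nt, 10699 (60.8%) had at least 1, and 4571 (26.0%) had one of at least 20 codons. After the length and GC trend was subtracted, the median log2 difference was 0.05 without a uORF, -0.02 with 1, -0.08 with 2, -0.09 with 3, -0.16 with 4 and -0.20 with 5 or more. As measured the medians were 0.05 without a uORF and -0.10 with 5 or more. The step from none to 5 or more was small against the spread of genes, since the interquartile range of genes without a uORF ran from -0.30 to 0.37. The rank correlation with the number of uORFs was -0.03 as measured and -0.13 with the trend removed. That trend was fitted on transcript length, which includes the 5′ UTR. Median 5′ UTR length rose from 130 nt without a uORF to 450 nt with 5 or more. For 5′ UTR length itself the rank correlation went from 0.06 as measured to -0.08 with the trend removed. Whether the number of uORFs matters apart from 5′ UTR length was not tested.

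Genes known to carry a uORF with a conserved peptide were mostly lower. Of 33 tested, 3 were higher in polysomal RNA and 27 lower, 5 of them by at least 2-fold, with a median of -0.56 at a median coding length of 1101 nt; with the trend removed the median was -0.66, with 2 higher and 28 lower, of which 9 by at least 2-fold. The model used held a uORF of at least 20 codons for 30 of the 33 and none for PMEAMT and TPPH. Members of a family share a peptide and are not independent of each other. The ends of these uORFs are printed for 3 families because the stalling peptides act near their last codons; each line gives the last 30 bases from RefSeq TAIR10.1, 5′ to 3′, with the stop codon in capitals. The SAC51 family, basic helix-loop-helix factors of the thermospermine response, lies at chr5:25732191-25732220, minus strand (SAC51), chr5:2945714-2945743, minus strand (AT5G09460), chr1:10493075-10493104, plus strand (AT1G29950) and chr5:20349351-20349380, plus strand (AT5G50010). The S-adenosylmethionine decarboxylases, which control polyamine synthesis, lie at chr3:509944-510068, plus strand (SAMDC), chr5:5206558-5206587, plus strand (AT5G15950) and chr3:9288595-9288736, minus strand (AT3G25570), where the windows of SAMDC and AT3G25570 span an intron. The group S bZIP factors, whose uORF responds to sucrose, lie at chr2:7898917-7898946, minus strand (bZIP2), chr1:28292051-28292080, plus strand (bZIP44) and chr4:16522197-16522226, plus strand (GBF6, also called bZIP11).
SAC51: ttcagacttctactcaaaccagtcacgTAG
AT5G09460: tttagacatatactcaaaccagtgacgTAG
AT1G29950: ttcagacagttgcttaagcctgtaacgTAG
AT5G50010: ttccgtcaattgttgaagcccgtcacgTAG
SAMDC: tactcaaactgctccaagaggccatccTGA
AT5G15950: tactccaactgcgctaagaggccttccTGA
AT3G25570: tactcaaacatcactggaaaaccatccTGA
bZIP2: ttcctctactggttttacaacgtttcaTGA
bZIP44: tttctctactggttctatgttttctcaTAA
GBF6: ttcctttactggctttactatgtctcaTGA
Within the SAC51 family a pair of these ends had 19 to 26 of 30 positions identical, within the decarboxylases 20 to 26 and within the bZIP factors 21 to 25.

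In the SAC51 family, AT1G29950 had 17.2, 16.6 and 17.5 FPKM in polysomal RNA, against 51.1, 49.5 and 46.95 FPKM in total RNA. In AT1G29950 the log2 difference was -1.47 (SE 0.05, limma adjusted p = 1.2e-16), the lowest of the 33 hosts. SAC51 had 19.7, 18.9 and 19.7 FPKM in polysomal RNA, against 35.7, 34.8 and 37.02 FPKM in total RNA. In SAC51 the log2 difference was -0.85 (SE 0.04, limma adjusted p = 1.3e-13). AT5G09460 and AT5G50010 had log2 differences of -0.62 and -0.29, so all 4 members were lower. SAMDC had 2013, 1930.4 and 2049 FPKM in polysomal RNA, against 3485, 4681 and 4039.6 FPKM in total RNA. In SAMDC the log2 difference was -1.02 (SE 0.07, limma adjusted p = 1.9e-11), or -1.46 with the trend removed. AT3G25570 had 4.16, 4.48 and 6.23 FPKM in polysomal RNA, against 15.4, 11.5 and 13.4 FPKM in total RNA. In AT3G25570 the log2 difference was -1.28, and AT5G15950 had 29.99, 28.8 and 27.9 FPKM in polysomal RNA, against 48.04, 50.2 and 52.4 FPKM in total RNA. In AT5G15950 the log2 difference was -0.77. The 3 decarboxylase genes were thus all lower, at levels in total RNA that ran from 13.4 FPKM on average for AT3G25570 to 4069 for SAMDC. Among the bZIP factors, bZIP2 had 135, 131 and 136 FPKM in polysomal RNA, against 267, 277 and 280.4 FPKM in total RNA. In bZIP2 the log2 difference was -1.03 (SE 0.04, limma adjusted p = 1.5e-15), or -0.53 with the trend removed, and in bZIP44 it was -1.25, or -0.85 with the trend removed. GBF6 had 19.97, 19.8 and 19.1 FPKM in polysomal RNA, against 25.1, 24.03 and 25.8 FPKM in total RNA. In GBF6 the log2 difference was -0.33, and in bZIP1 it was -0.996. Both calls ended with the trend removed, at -0.07 in GBF6 and -0.07 in bZIP1 (limma adjusted p = 0.25 and 0.26). BZIP53 was not called, with a log2 difference of -0.10 from 109, 115 and 114 FPKM in polysomal and 114, 129 and 121 FPKM in total RNA (limma adjusted p = 0.10), and with the trend removed it was higher, at 0.30 (limma adjusted p = 5.5e-05). Of the other hosts, the protein kinase SIP3 had 224, 212 and 226 FPKM in polysomal RNA, against 386, 434 and 406 FPKM in total RNA. In SIP3 the log2 difference was -0.88, and VTC2 of ascorbate synthesis had -0.52, the heat shock factor HSF4 -0.73 and the polyamine oxidase PAO2 -0.14. PMEAMT, a phosphoethanolamine methyltransferase whose model has no uORF, was higher as measured, with 0.19, and lower with the trend removed, with -0.12. AT1G73600 and XPL1, also annotated as methyltransferases, have a longest uORF of 25 codons in their models. AT1G73600 was the highest of the 33 hosts, at 0.64, and stayed higher with the trend removed, at 0.29 (limma adjusted p = 0.028). XPL1 was not called as measured, at 0.13, and was lower with the trend removed, at -0.29.

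**Figure D5:**
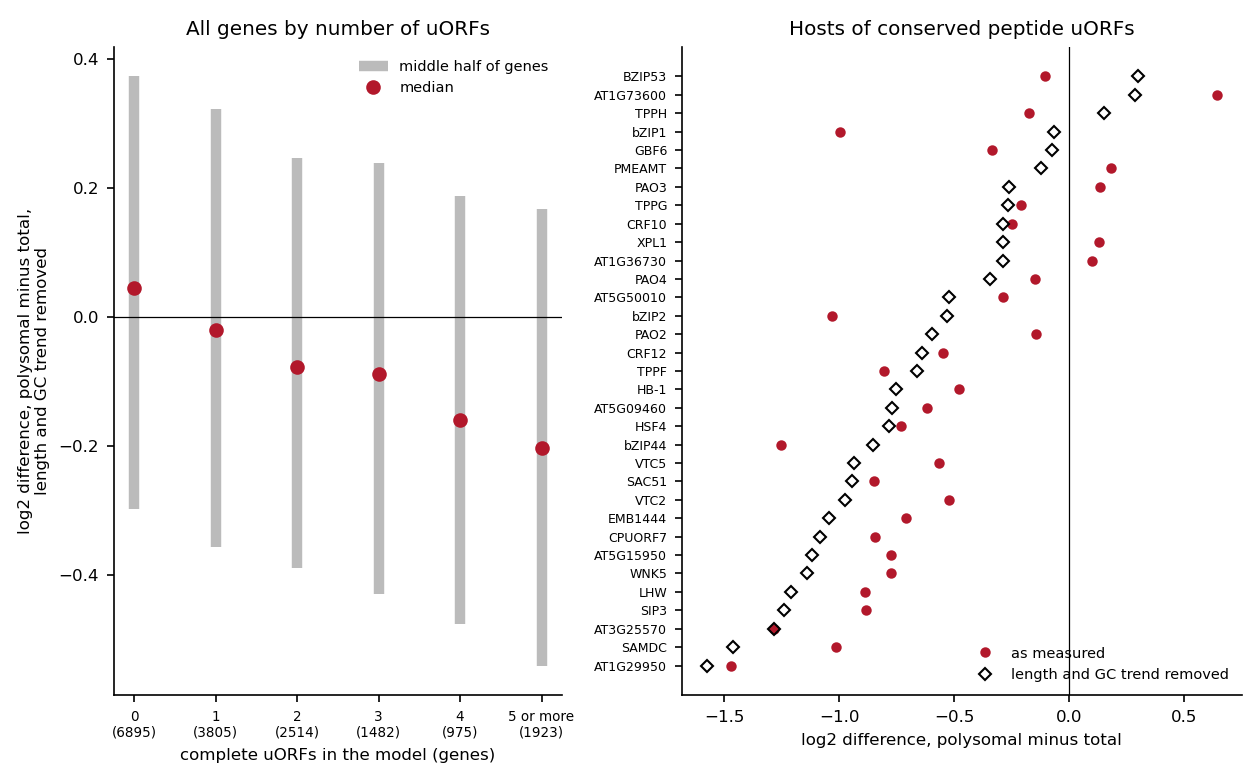
Left, median log2 difference, polysomal minus total RNA after the length and GC trend was subtracted, by number of complete uORFs in the gene model (genes in brackets; grey bars are interquartile ranges). Right, the 33 hosts of a conserved uORF peptide, as measured (filled) and with the trend removed (open), ordered by the open diamonds. The medians at the left run from 0.05 without a uORF to -0.20 with 5 or more, and 28 of the 33 hosts at the right were called lower with the trend removed. The trend used transcript length, which includes the 5′ UTR.

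RNAs that encode no protein were also found in the polysomal fraction. Of 1012 long non-coding and natural antisense RNA genes tested, 141 were higher in polysomal RNA and 254 lower, with a median of -0.17; only 172 of them do not overlap an annotated gene on the other strand, and of these 20 were higher and 58 lower. With the trend removed, which covers 687 of the 1012 genes, 301 were higher and 115 lower, with a median of 0.41. That trend was fitted on nuclear protein-coding genes only. Whether it holds for RNA genes and pseudogenes was not tested, so their trend-removed values carry no reading of direction. AT1G10682, which has no such overlap, had 138, 149 and 152 FPKM in polysomal RNA, against 492, 598 and 557 FPKM in total RNA. In AT1G10682 the log2 difference was -1.90 (SE 0.07, limma adjusted p = 9.4e-16). Of 220 pseudogenes 22 were higher in polysomal RNA and 96 lower, with a median of -0.29; with the trend removed the median of 215 was -0.20, with 46 higher and 91 lower. Of 21 small nucleolar and small nuclear RNA genes, 11 were higher and 0 lower by limma (1 lower at an unadjusted p below 0.05), but 6 or 7 were higher when any 1 library other than the first polysomal one was left out, and all but 2 have models below 300 nt. Of 25 primary microRNA genes 2 were higher and 5 lower, while with the trend removed, which covers 7 of them, 5 were higher. MIR163 had 31.7, 21.1 and 30.9 FPKM in polysomal RNA, against 52.3, 37.8 and 41.7 FPKM in total RNA. In MIR163 the log2 difference was -0.65, or -0.32 with the trend removed, when it was not called (limma adjusted p = 0.12).

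Chloroplast genes are transcribed and translated inside the organelle by its own ribosomes. Of 66 chloroplast-encoded genes tested, 1 was higher in polysomal RNA and 39 were lower, with a median of -0.76; the single call upward was lost without total RNA library 1 or 2 or polysomal library 1 or 3. ATCG00800 had 33.5, 26.96 and 25.6 FPKM in polysomal RNA, against 198, 259 and 230.3 FPKM in total RNA. In ATCG00800 the log2 difference was -2.96, and ATCG01130 had 16.7, 17.7 and 18.02 FPKM in polysomal RNA, against 78.1, 102 and 94.4 FPKM in total RNA. In ATCG01130 the log2 difference was -2.31. In both genes the polysomal libraries were all below the total RNA libraries. Of 9 mitochondrion-encoded genes 2 were higher and 2 lower, with a median of -0.40, and 0 or 1 were lower when the first or second library of either fraction was left out. The libraries were made by an mRNA protocol, and organelle transcripts mostly lack long poly(A) tails.

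Most genes called in unstressed Col-0 had the same sign in the other samples, in the highest share in dcp5-1 T0 and in the lowest in Col-0 T15. Of the 7390 genes higher in polysomal RNA of Col-0 T0, 96.7%, 84.7% and 89.6% had the same sign in dcp5-1 T0, Col-0 T15 and dcp5-1 T15, and 87.4%, 67.3% and 76.4% were also called higher. Of the 7548 genes lower, 96.8%, 79.6% and 87.3% had the same sign there, and 84.9%, 59.1% and 69.8% were also called lower. Of the 1177 genes at least 2-fold higher in polysomal RNA of Col-0 T0, 1172 had the same sign in dcp5-1 T0, 1158 in Col-0 T15 and 1168 in dcp5-1 T15, which share no library with it. Their median log2 difference was 1.19 in Col-0 T0, against 1.32, 0.85 and 1.04 in dcp5-1 T0, Col-0 T15 and dcp5-1 T15. Of the 1719 genes at least 2-fold lower, 1708, 1513 and 1646 had the same sign there, with medians of -1.29 in Col-0 T0, against -1.03, -0.59 and -0.78. Since the genes were chosen by their size in Col-0 T0, a smaller value elsewhere is partly what that choice gives. The rank correlation with coding length was 0.56 in Col-0 T0, against 0.56 in dcp5-1 T0, 0.17 in Col-0 T15 and 0.37 in dcp5-1 T15. The median of the shortest class was -0.98 in Col-0 T0, against -0.79, -0.30 and -0.48 in dcp5-1 T0, Col-0 T15 and dcp5-1 T15.

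Tested directly, the difference between fractions was larger or smaller in Col-0 T0 than in dcp5-1 T0 for 2280 genes (10.9%), with 659 higher (3.14%) and 1621 lower (7.73%) in Col-0 T0. After values were rescaled to the nuclear transcripts alone, which shifted the median over all genes by 0.05, these were 783 and 1026. A difference of at least 2-fold was reached by 6 genes upward (0.0286%) and 23 downward (0.110%). Against Col-0 T15 the difference between fractions changed for 9289 genes (44.3%), with 4503 higher (21.5%) and 4786 lower (22.8%) in Col-0 T0, and with 63 (0.301%) and 945 (4.51%) at least 2-fold. This split depended on scaling: on the nuclear transcripts alone the median moved by 0.20, and 7891 genes were higher and 2871 lower in Col-0 T0.

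Ribosomal protein genes were among those whose loading was lower in Col-0 T0 than in Col-0 T15. Short coding sequences moved this way in general, with medians of -0.98 in Col-0 T0 and -0.30 in Col-0 T15 in the shortest class. In the longest class they were 0.27 and -0.05. Median coding length was 453 and 465 nt in the ribosomal groups, 357 nt in respiratory chain and 411 nt in histone genes. It was 1810.5 to 2958 nt in the groups named below as higher in Col-0 T0. Whether any group moved beyond its length was not tested. Of the 78 small-subunit genes none was higher (0 at an unadjusted p below 0.05) and 68 were lower in Col-0 T0 by limma, with a median difference of -0.78 (-0.54 when scaled to nuclear transcripts), and of the 111 large-subunit genes 3 were higher and 99 lower, with -0.89 (-0.64). Their medians in Col-0 T15 were 0.19 and 0.30, or -0.07 and 0.05 when scaled to nuclear transcripts, against -0.59 and -0.70 in Col-0 T0. Of the 79 respiratory chain genes 2 were higher and 58 lower, with a median difference of -0.63 (-0.45 on the nuclear scale, with 13 higher and 49 lower). Of 41 core histone genes none was higher by limma (0 at an unadjusted p below 0.05) and 27 were lower, with -0.46 (-0.22 on the nuclear scale, with 2 higher and 16 lower). Auxin response factors stood on the other side, with 7 of 14 higher in Col-0 T0 and none lower (11 and 0 on the nuclear scale), and so did cellulose synthases, with 13 of 21 higher and none lower (16 and 0); in both groups limma called none lower at an unadjusted p below 0.05 either. Leucine-rich repeat receptor kinases had 49 of 124 higher and 5 lower (81 and 2 on the nuclear scale), and genes of messenger decay 18 of 30 higher and 5 lower (21 and 4). Among the hosts of conserved uORFs 5 were higher and 12 lower, with a median of -0.05, which turned to 0.20 with 17 higher and 3 lower on the nuclear scale. The hosts stayed low in Col-0 T15 itself, with a median of -0.47, against -0.56 in Col-0 T0. On the nuclear scale the order turned, with -0.69 in Col-0 T15 and -0.58 in Col-0 T0.

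Single genes differed in either direction. RCA had a log2 difference between fractions of 2.01 in Col-0 T0, against 0.76 in Col-0 T15, a difference of 1.251 (limma adjusted p = 2.9e-10). SMAP1 had -2.27 in Col-0 T0, against -0.56 in Col-0 T15, a difference of -1.71 (limma adjusted p = 2.7e-10). DI19 had 2.32 in Col-0 T0, against 3.01 in Col-0 T15, a difference of -0.69 (limma adjusted p = 5.6e-06). The enzyme was thus further above, and the small protein further below, in unstressed seedlings, while DI19 was less far above. For DCP5 the difference between fractions was larger in Col-0 T0 than in Col-0 T15 by 0.68 (limma adjusted p = 7.8e-09) and larger than in dcp5-1 T0 by 0.22 (limma adjusted p = 0.021), where the transcript comes from the mutated locus. GLDP1 was loaded less in Col-0 T0 than in dcp5-1 T0, with 1.99 against 2.72, a difference of -0.73 (limma adjusted p = 4.0e-06).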

How the data were processed

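RNA of polysome fractions and of whole lysates was sequenced; the deposited table holds FPKM values, as the authors gave them, for 38088 genes in 24 columns. Alignment with Bowtie to TAIR10 is named in the submitters' processing notes, without a version. No source used here names the counting tool, the use of strand or any scaling. The unit was read from the values: low ones are whole fragments (99.7% to 100% within 0.1) after division by transcript length less 254 to 279 nt.

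In column names W was taken as wild type, d as dcp5-1, the number as minutes and IP as polysomal RNA; their numbers are tied to no replicate by the labels, and libraries are given in column order.

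limma 3.58.1 (R 4.3.3; limma-trend with robust empirical Bayes) was fitted to log2(FPKM + 1), pseudocount 1, for 20964 genes in 8 groups with 16 residual degrees of freedom. A gene was called at a Benjamini-Hochberg adjusted p below 0.05. Folds on this scale understate changes of low genes. Precision is limited by 3 libraries a group. Gene symbols, lengths and sequences came from RefSeq TAIR10.1, which matched 99.2% of the identifiers; 1 model per gene was used. The trend on transcript length (6 spline degrees of freedom) and GC content (4) was fitted in each library on nuclear protein-coding genes. It was subtracted for all genes of at least 300 nt. The fit was tested on simulated data, with independent normal values and few changed genes. That setting differs from the broad differences found here, so it gives no error rate for them.

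The comparison and the gene lists were chosen with earlier results of these data known. From the lists written by hand as loci, members whose annotation did not name the protein expected were left out. No member was dropped in this way from lists made by a rule on the annotation, such as the aminoacyl-tRNA synthetases and the peroxidases. Named genes were DCP5; the 12 largest differences in each direction among called genes whose groups did not overlap, with a mean over the libraries of 10 FPKM or more, a symbol, at least 300 nt and no organelle origin; up to 3 members per list and direction with the smallest p and at least 5 FPKM; and the 10 highest nuclear genes in total RNA. Alternatives were a pseudocount of 0.1, 2 other filters, 2 scalings (median of ratios, and one total of FPKM times length over nuclear transcripts of at least 300 nt), a fit of the 6 libraries alone, a null fold of 1.5, the column number as a block, the trend removed, each library left out in turn and, after seeing the data, the length conversion undone and members that overlap an antisense gene left out.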

Additional observations from a re-analysis of the deposited data

Results flagged for a closer look

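Among the 24 genes with the largest differences between fractions, the difference itself was tested between Col-0 T0 and the other 2 groups, and 35 of these tests passed (limma, Benjamini-Hochberg adjusted p below 0.05), 13 against dcp5-1 T0 and 22 against Col-0 T15. The values below are the log2 difference, polysomal minus total, in Col-0 T0 less that in the other group, and 34 of the 35 passed in the same direction on values scaled to nuclear transcripts; the exception was AGP21 against dcp5-1 T0 (-0.51, limma adjusted p = 0.060). The genes were chosen by their values in Col-0 T0, which favours values nearer 0 elsewhere.

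Against dcp5-1 T0, ACR9 stood higher in Col-0 T0 by 0.29, and the other genes that passed stood lower. Of genes higher in polysomal RNA of Col-0 T0 these were GLDP1 (-0.73), THIC (-0.36) and CAT2 (-0.35), and of genes lower in it UPI (-0.45), PROPEP4 (-0.56), PDF1.4 (-0.96), MT3 (-0.41), SMAP1 (-0.65), KELP (-0.56), SDH8 (-0.45), TIM9 (-0.43) and AGP21 (-0.58).

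Against Col-0 T15, BCE2 (0.90), HSP60 (0.63), HCEF1 (0.30), RCA (1.251), GLDP1 (0.53), ALP (0.48) and THIC (0.30) stood higher in Col-0 T0, all of them genes higher in polysomal RNA there. The genes that stood lower in Col-0 T0 were the small nucleolar RNA gene U3D (-1.51), DI19 (-0.69) and ACR9 (-0.47), which were higher in polysomal RNA of Col-0 T0, and, of genes lower in it, JAZ8 (-0.87), UPI (-1.26), PROPEP4 (-1.66), PDF1.4 (-1.61), MT3 (-0.79), MT2B (-0.74), SMAP1 (-1.71), RTFL12 (-0.81), KELP (-0.69), SDH8 (-1.27), TIM9 (-1.06) and AGP21 (-1.03).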

How the results depend on the processing

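The counts of genes higher and lower in polysomal RNA kept within 1.5 times of their value under a pseudocount of 0.1, other filters, both other scalings, a fit of the 6 libraries alone and the trend removed, but against a fold of 1.5 the test called 2218 higher and 2298 lower. With the trend removed, 650 genes were at least 2-fold higher and 570 lower, and 2802 were higher in Col-0 T0 than in Col-0 T15. Against a fold of 1.5, limma called 0 genes higher and 1 lower in Col-0 T0 than in dcp5-1 T0 (659 and 1621 without a null fold), and 140 higher and 781 lower than in Col-0 T15. Scaled to nuclear transcripts, 1026 genes were lower in Col-0 T0 than in dcp5-1 T0, and 7891 were higher and 2871 lower than in Col-0 T15. The cause was not tested.

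Leaving out each of the 6 libraries in turn gave 7080 to 7192 genes higher and 7168 to 7354 lower, 1110 to 1194 and 1611 to 1847 at least 2-fold, 466 to 815 and 1290 to 2212 against dcp5-1 T0, and 4152 to 4558 and 4382 to 5029 against Col-0 T15. Deviations of columns with the same number had correlations of -0.026, -0.049 and 0.001 between fractions, and columns with different numbers -0.022 to 0.047. These values show no pairing by number but cannot exclude it, since no assignment of columns stood out. With the number as a block 7246 genes were higher and 7444 lower, and 425 were higher in Col-0 T0 than in dcp5-1 T0.

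Of 230 named genes, 4 changed sign with the trend removed: PMEAMT (-0.12), AT1G36730 (-0.29), ZTL (-0.37) and EXPB3 (-0.17). Against a fold of 1.5, 64 of them no longer passed. Of 80 list counts 73 moved by over 1.5 times against a fold of 1.5, 33 with the trend removed and 15 without members that overlap an antisense gene. At the depth of these libraries, FPKM of models below 300 nt were unstable.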
